A study of Mus musculus with 6 samples.

Results

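The genes described here are 9 that write, maintain, read or remove methylation of cytosine in DNA: Dnmt3l, Dnmt3a, Dnmt3b, Dnmt1, Uhrf1, Tet1, Tet2, Tet3 and Mbd2. They were chosen by symbol around 1 gene, Dnmt3l, which had fallen between the time points in the same data. All probe sets whose platform annotation names exactly 1 of these genes were taken. They were 22 of the 44935 probe sets kept from the array, for 9 of the 18163 genes that the kept ones name. RNA came from whole adrenal glands of male mice aged 3 months, with 3 arrays at 54 h and 3 at 46 h after lights off. All mice of both time points carried Per2Brdm1 and Cry1-/- on a mixed C57BL6x129Sv background and were held in constant darkness after entrainment to a light-dark cycle. Both mutations lie in genes of circadian clock repressors and are carried by the whole animal, and no glands with a working clock were analysed here. The labels name the arrays of a time point only by a letter, none (called 1 here), B and C, and do not say which animals they came from.

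DNMT3A and DNMT3B place methyl groups on unmethylated DNA. DNMT3L resembles them but has no catalytic activity of its own, and it acts as their cofactor, above all in germ cells, where maternal and paternal imprints are set. DNMT1 copies methylation onto the new strand after replication, guided there by UHRF1. TET enzymes oxidise methylcytosine as a step towards its removal, and MBD2 binds methylated sites and recruits a repressor complex.

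The annotated starts of these genes are shown first because the series concerns the clock. The E-box CACGTG, a palindrome and so the same on both strands, is the element bound by CLOCK and BMAL1, whose activity PER2 and CRY1 restrain. RefSeq windows of 300 bases (250 before and 50 after each annotated start, build GRCm38.p6) matched 8 of the 9 genes, with 15 windows. The E-box was in 2 of these 15 windows, 1 of Dnmt3l and 1 of Dnmt3a, and in 7.15% of all 32851 windows. The 250 bases before the start are printed for both, with the E-box in capitals, since they are the member windows that hold it. The first lies at chr10:78049592-78049841 and the second at chr12:3891494-3891743, both on the plus strand.
Dnmt3l: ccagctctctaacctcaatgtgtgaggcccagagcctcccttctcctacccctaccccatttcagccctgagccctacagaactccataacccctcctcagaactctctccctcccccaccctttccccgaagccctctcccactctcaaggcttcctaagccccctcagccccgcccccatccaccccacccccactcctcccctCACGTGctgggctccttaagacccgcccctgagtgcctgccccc
Dnmt3a: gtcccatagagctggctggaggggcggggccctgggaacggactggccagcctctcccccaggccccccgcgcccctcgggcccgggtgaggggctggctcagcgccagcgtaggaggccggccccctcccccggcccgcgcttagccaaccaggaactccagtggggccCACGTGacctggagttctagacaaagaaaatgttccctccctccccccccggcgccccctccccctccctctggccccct
The E-box begins 44 bases before the start in the Dnmt3l window and 80 bases before it in the Dnmt3a window. A match describes these letters and not a bound site. The cAMP response element TGACGTCA and the NR5A1 half-site CAAGGTCA, searched on both strands, were in 0 of the 15 windows and in 1.79% and 1.56% of all windows. The 3 Dnmt3l windows had 6, 4 and 3 CpG sites, where the median of all windows was 7 and the quartiles were 3 and 20. The 3 Dnmt3a windows had 46, 47 and 18, those of Dnmt1 had 2, 12 and 33, those of Uhrf1 had 12 and 33, and the single windows of Dnmt3b, Tet1, Tet2 and Tet3 had 30, 17, 57 and 22.

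Dnmt3l read 195, 171 and 199.6 intensity units on 54h arrays 1, B and C, against 394, 337 and 431 units on 46h arrays 1, B and C. All 3 arrays at 54 h lay far below all 3 at 46 h. The means were 188 ± 15.1 units at 54 h and 387 ± 47.6 units at 46 h (SD, n = 3 each). On log2(intensity + 16), the scale of every change given here, the change of 54 h minus 46 h was -0.98 ± 0.13 SE, or 1.97-fold lower, with a 95% interval of -1.27 to -0.69. This change was the 18th lowest of the 26961 probe sets above the filter on low values, which kept a mean log2 level above 7.28, about 139 units. Dnmt3l was 1 of the 31 probe sets past limma's adjusted threshold of 0.05, or 0.115% of those tested, with 16 higher (0.0593%) and 15 lower (0.0556%), while 10.1% had an unadjusted limma p under 0.05. Centring arrays on their medians gave 31 higher and 19 lower. That call chose the gene, so it is given as a description and not as a test.

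**Figure D1:**
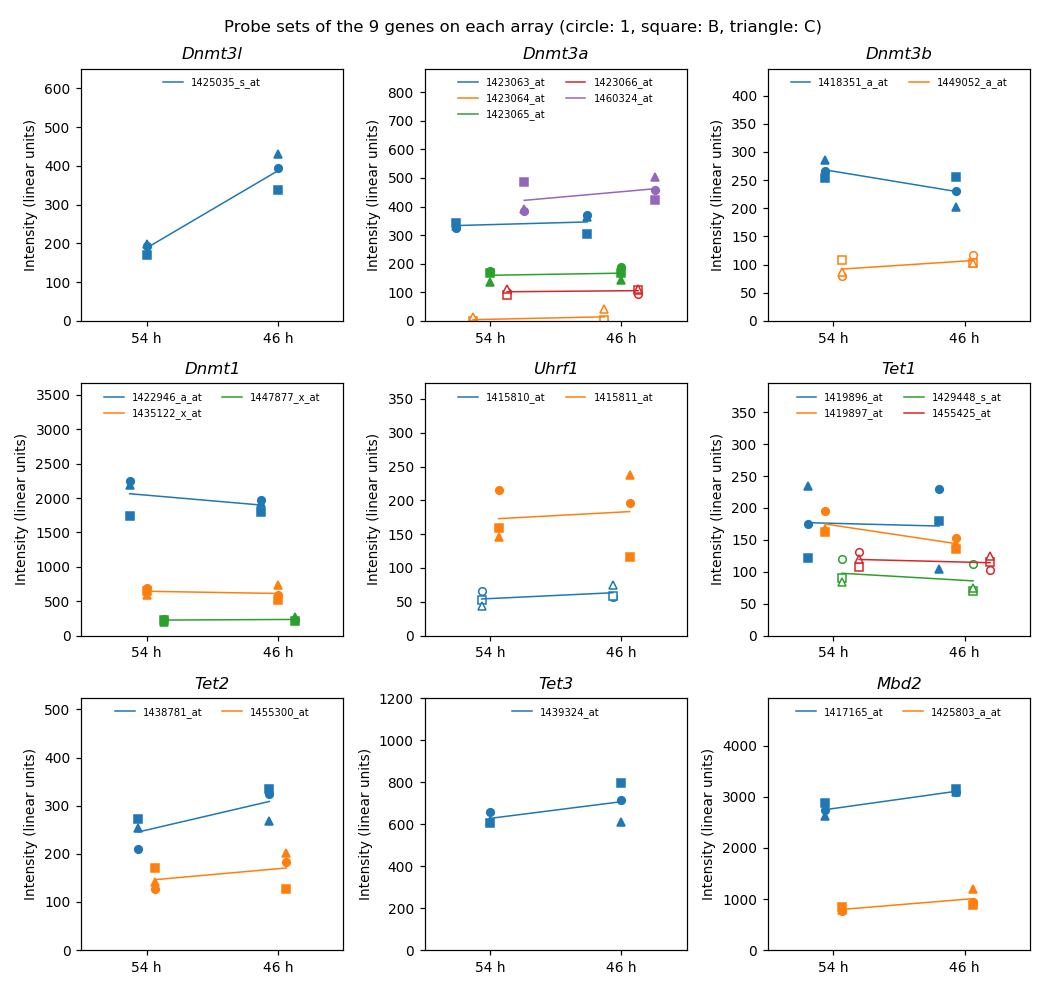
Intensity in linear units of every probe set of the 9 genes, with 54 h left of 46 h in each panel. Symbols are single arrays (circle 1, square B, triangle C), lines join the means of the time points, colours are probe sets and open symbols are probe sets under the filter; Dnmt3l sits at 171 to 199.6 units at 54 h and at 337 to 431 units at 46 h.

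The Dnmt3l value rests on 1 probe set, 1425035_s_at, whose suffix marks a set that can match more than 1 transcript, and no second probe set checks it. The change kept its sign and size without any single array, between -1.07 and -0.90. The call was lost without 46h replicate 1 (-0.96), 46h replicate C (-0.90), 54h replicate B (-0.91) or 54h replicate C (-1.02), and it was kept without 46h replicate B or 54h replicate 1. In whole glands, fewer cells that hold a transcript and less of it per cell cannot be told apart.

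Of the 22 probe sets, 16 passed the filter and 6 did not. Of the 16, 11 had a change below 0 and 5 above, where 55.6% of all probe sets tested were below 0. The 54 h and 46 h arrays did not overlap for 4 of them, against 15.5% of all tested. Of these 4, 3 were lower at 54 h (9.05% of all tested) and 1 was higher (6.48%). They were the Dnmt3l probe set, both of Mbd2 and 1 of Tet1. The counts of 11, 4 and 3 each include the Dnmt3l probe set, whose fall chose these genes. That part of each count was therefore fixed beforehand, and the remaining lower ones without overlap belong to 1 gene, Mbd2. The other 15 probe sets above the filter had changes from -0.32 to 0.25, and every one of their 95% intervals lay within a 2-fold change either way, with outermost bounds of -0.62 and 0.68. The filter kept these probe sets by level, so the counts do not describe the 6 under it.

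**Figure D2:**
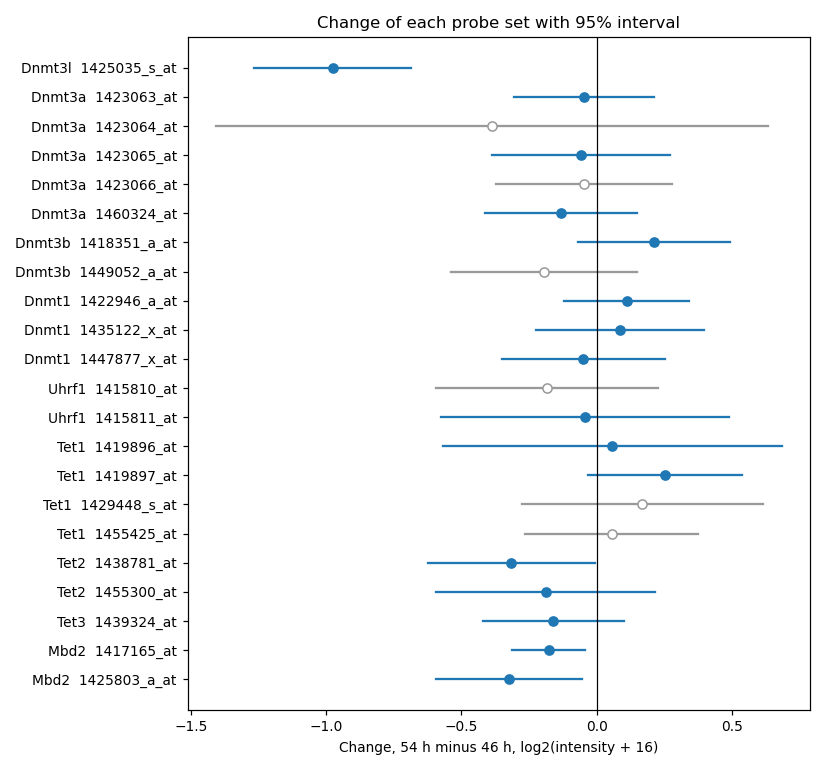
Change of each of the 22 probe sets, 54 h minus 46 h on log2(intensity + 16), with its 95% interval. Filled blue points passed the filter and open grey ones did not; Dnmt3l stands at -0.98 and the other blue points lie between -0.32 and 0.25.

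The catalytic partners of DNMT3L, which it binds and stimulates, had small changes. The brightest Dnmt3a probe set read 386, 486 and 393 units at 54 h, against 459.5, 423 and 504 units at 46 h. Array B was the highest at 54 h and the lowest at 46 h, the time points overlapped, and the change was -0.13 ± 0.13 SE. The other 2 Dnmt3a probe sets above the filter had -0.05 ± 0.12 SE and -0.06 ± 0.15 SE, so the 3 had the same sign. Of the 2 under the filter, 1 had -0.05 ± 0.15 SE, and the other read 0 to 12.6 units at 54 h and 1.40 to 40.1 units at 46 h, too dim for a level.

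Dnmt3b, the second de novo enzyme, read 266, 253 and 285 units at 54 h, against 230.3, 256 and 203 units at 46 h. The change was 0.21 ± 0.12 SE and the values of the time points overlapped on 1 array of each. Its other probe set, under the filter, had the opposite sign, with 80.2 to 108 units at 54 h, 102 to 116 units at 46 h and a change of -0.20 ± 0.15 SE. The probe sets of Dnmt3b therefore gave no common direction, and their mean change was 0.01.

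Among the maintenance genes, Dnmt1 read 2252, 1742 and 2194 units at 54 h, against 1973, 1796 and 1927 units at 46 h, on its brightest probe set. Array B was the lowest of its time point on both sides, and the values overlapped. The change was 0.11 ± 0.10 SE, and the other 2 Dnmt1 probe sets had 0.09 ± 0.14 SE and -0.05 ± 0.13 SE. Uhrf1, which brings DNMT1 to newly copied DNA, varied more between arrays of 1 time point than between time points. It read 215, 159 and 145 units at 54 h, against 196, 117 and 238 units at 46 h, a change of -0.04 ± 0.24 SE. Its second probe set, under the filter, had -0.18 ± 0.18 SE.

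Of the oxidising enzymes, Tet1 had 2 probe sets above the filter that differed in how well arrays agreed. On 1419897_at it read 195, 162 and 168 units at 54 h, against 152, 136 and 144 units at 46 h, a change of 0.25 ± 0.13 SE with no overlap. On 1419896_at, the brighter of the 2 in mean log2 level, it read 122 to 234 units at 54 h and 105 to 230.1 units at 46 h, and the change was 0.06 ± 0.28 SE. The 2 under the filter had 0.17 ± 0.20 SE and 0.06 ± 0.14 SE, so all 4 Tet1 probe sets were on the higher side at 54 h.

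Tet2 had changes below 0 on both probe sets. The brighter read 210.2, 272 and 254 units at 54 h, against 324, 334 and 269 units at 46 h, and 54h array B lay just above 46h array C. The change was -0.31 ± 0.14 SE, and -0.19 ± 0.18 SE on its second probe set. Tet3, with 1 probe set, read 660.1, 607 and 618 units at 54 h and 716, 797 and 611 units at 46 h, a change of -0.16 ± 0.12 SE with overlapping values.

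Mbd2, the reader among the 9, was lower at 54 h on both of its probe sets. The brighter read 2750.1, 2872 and 2626 units at 54 h, against 3086, 3147 and 3096 units at 46 h, a change of -0.18 ± 0.06 SE. The dimmer read 764, 849 and 779.6 units at 54 h, against 952, 885 and 1189 units at 46 h, a change of -0.32 ± 0.12 SE. No 54 h array reached the lowest 46 h array on either, but neither probe set passed the threshold over all probe sets. Mbd2 was the only gene of the 9 with several probe sets above the filter whose values did not overlap on all of them. Across the 6 arrays its probe sets had a Pearson correlation with Dnmt3l of 0.83 each, as a description over arrays that share the time difference. That of the brightest Dnmt3a probe set was 0.46 and that of Dnmt3b above the filter -0.78.

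The genes next to Dnmt3l on chromosome 10 were read from the RefSeq order of protein-coding genes, and none passed the threshold. Aire, a regulator of self-antigen expression in the thymus, is annotated on the opposite strand and overlaps Dnmt3l. Its probe set was under the filter, with 43.4, 60.5 and 59.8 units at 54 h and 56.0, 32.6 and 63.5 units at 46 h. Icosl, a costimulatory ligand on the other side, had changes of -0.30 ± 0.13 SE and 0.25 ± 0.16 SE on its 2 probe sets, in opposite directions. The phosphofructokinase gene Pfkl had 0.14 ± 0.07 SE and 0.18 ± 0.08 SE above the filter and -0.37 ± 0.17 SE under it, Cfap410 had 0.07 ± 0.17 SE and 0.00 ± 0.13 SE, Gatd3a had -0.07 ± 0.04 SE and Pwp2 had -0.10 ± 0.10 SE.

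The genes whose pattern over the 6 arrays was most like that of Dnmt3l were Sdc2, a cell surface proteoglycan, Med10, a Mediator subunit, Entpd5, Bfar and the multidrug transporter gene Abcb1b. Their Pearson correlations with it on log2(intensity + 16) were 0.993 to 0.996 over 6 arrays, which are few, and the time difference is common to all. Abcb1b read 205, 199 and 205 units at 54 h, against 356, 323 and 363 units at 46 h, on 1 of its 2 probe sets, and it had the largest change of the 5, -0.73 ± 0.11 SE, with -0.37 ± 0.07 SE on its other probe set. The other 4 had changes between -0.35 and -0.15, so a similar order of arrays went with smaller differences. At the opposite end were Psat1, an enzyme of serine synthesis, Plppr1, 4932437C15Rik, Timp1, an inhibitor of metalloproteinases, and Commd1, with correlations of -0.99 to -0.97. Several of these genes had probe sets that differed: over all of theirs, the changes ran from -0.34 to 0.14 for Entpd5 and from -0.36 to 0.29 for Plppr1, and the second probe set of 4932437C15Rik had -0.17. None of the other 8 methylation genes was among these.

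**Figure D3:**
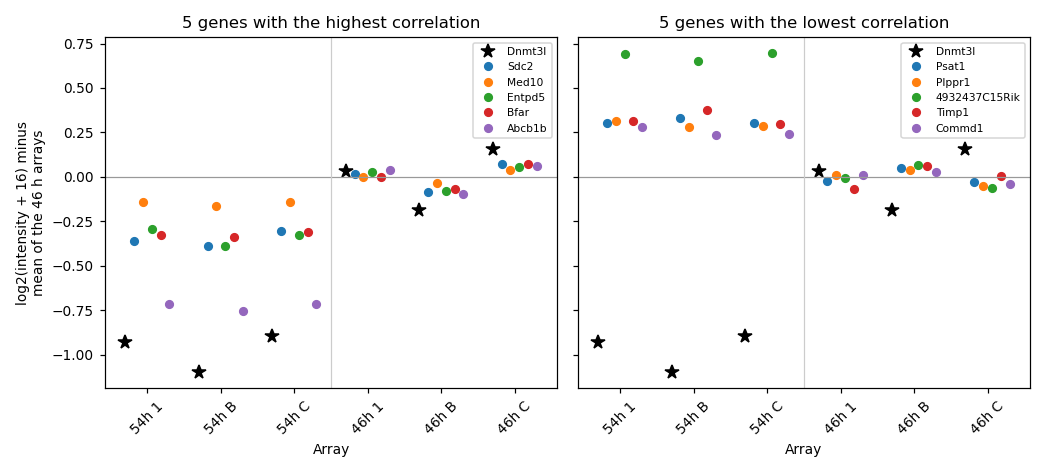
Level of Dnmt3l (star) and of the 5 genes with the highest (left) and the 5 with the lowest correlation with it (right), on each array, as log2(intensity + 16) minus the mean of the 46 h arrays. Dnmt3l lies about 1 log2 unit below 0 on every 54 h array, Abcb1b at -0.73 on average and 4932437C15Rik at 0.68.

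Around the 9 genes, lists of related genes were counted, each gene on its brightest probe set, against 13780 genes tested. Of all these genes 10.3% had an unadjusted limma p under 0.05 (4.11% higher, 6.2% lower), and 0.109% passed over all probe sets. Their median change was -0.02, and 56.7% had a change below 0. None of the 8 related lists had a gene past the threshold (0 in limma for each list). Of the methyl-CpG readers 8 of 12 were above the filter, with 3 higher and 5 lower, 1 (higher) with an unadjusted limma p under 0.05 and a median of -0.03. That gene was Zbtb33, which encodes the methyl-binding repressor Kaiso, at 1668, 1476 and 1489 units at 54 h and 1211, 1186 and 1442 units at 46 h, a change of 0.27 ± 0.10 SE, while its second probe set, under the filter, had -0.20. Mbd1 had a change of -0.03 ± 0.10 SE and Mbd3, the NuRD subunit, -0.12 ± 0.17 SE.

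Partners of maintenance methylation, 9 of 10 above the filter, had 4 higher, 5 lower, 0 with an unadjusted limma p under 0.05 and a median of -0.02. Pcna, the replication clamp that DNMT1 binds, had 0.10 ± 0.06 SE, the remodeller gene Hells -0.12 ± 0.11 SE and Uhrf2 -0.25 ± 0.13 SE. Partners of de novo methylation and repressive chromatin, 18 of 21, had 7 higher, 11 lower, 0 at that level in limma and a median of -0.05. The H3K36 methyltransferase genes Nsd1 and Setd2, whose mark recruits DNMT3A and DNMT3B, had -0.16 ± 0.09 SE each, and Trim28 had 0.03 ± 0.05 SE.

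Genes of demethylation and base excision, 19 of 23 above the filter, had 5 higher and 14 lower, with a median of -0.10. Of all genes tested, 56.7% were below 0. In limma, 2 higher and 3 lower genes of this list had an unadjusted p under 0.05. Gadd45b, a stress-induced gene linked to DNA demethylation, read 2567, 5692 and 4726 units at 54 h, against 1462, 3061 and 2335 units at 46 h. Its arrays varied widely within each time point and overlapped, and the change was 0.90 ± 0.31 SE on this, its brightest probe set. The others, also above the filter, had 0.65 ± 0.30 SE and 0.38 ± 0.23 SE, with overlap. The related Gadd45a had -0.33 ± 0.13 SE with no overlap, and Gadd45g had -0.23 ± 0.16 SE with overlap; both were added after their values were seen. Apobec1, a cytidine deaminase gene, read 368, 347 and 404 units at 54 h and 510.4, 513 and 509 units at 46 h, with no overlap and a change of -0.44 ± 0.10 SE. The isocitrate dehydrogenase genes, whose proteins make the 2-oxoglutarate that TET enzymes consume, had changes of opposite sign: Idh1 had -0.17 ± 0.05 SE and Idh3a 0.14 ± 0.05 SE.

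The methyl donor cycle, which makes S-adenosylmethionine, had 12 of 18 genes above the filter, 5 higher and 7 lower, 2 (both higher) with an unadjusted limma p under 0.05 and a median of -0.03. Bhmt, the betaine-homocysteine methyltransferase of liver and kidney, read 547, 678 and 577 units at 54 h, against 375, 270.2 and 416 units at 46 h, a change of 0.75 ± 0.16 SE with no overlap. The 10 liver markers measured, all above 0 on every array, summed to 8342 to 12444 units at 54 h and 3910.1 to 6085 units at 46 h, the same direction as Bhmt, and their part in its change was not tested. Ahcyl2 had 0.16 ± 0.07 SE on its brightest probe set, but 0.03 ± 0.10 SE and -0.01 ± 0.14 SE on its others. Ahcy, which clears the product of methylation, had 0.10 ± 0.07 SE.

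Imprinted genes, whose marks depend on DNMT3L in the germ line, had 20 of 26 above the filter, with 5 higher and 15 lower. Of all genes tested, 56.7% were below 0. Snrpn, 1 of the 15, read 205, 69.0 and 153 units at 54 h and 184, 207 and 148 units at 46 h. Its mean log2 level at 54 h lay under the filter, which it passed only through its 46 h level. No direction is therefore read from this count. The list's median was -0.08, and 5 genes, all lower, had an unadjusted limma p under 0.05. Meg3, the maternally expressed RNA of the Dlk1 cluster, read 559.9, 2343 and 1569 units at 54 h, against 3415, 4811 and 4238 units at 46 h, on its brightest probe set. The change was -1.68 ± 0.41 SE, with 54h array 1 far below the rest. Its other probe sets were looked up after its value was seen: of 11, 8 were above the filter, and 5 of these were lower with no overlap while the other 3 had changes near 0, between -0.08 and 0.03. Dlk1 had -0.29 ± 0.05 SE on its brighter probe set, at 8361, 8909.9 and 8225 units at 54 h and 10667, 9819 and 10708 units at 46 h, and 0.13 ± 0.11 SE on the other. Nap1l5 had -0.42 ± 0.09 SE, Peg3 -0.18 ± 0.06 SE and Igf2 -0.15 ± 0.11 SE, and none of these passed over all probe sets.

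Of the germline genes that methylation silences in somatic cells, 5 of 22 were above the filter, and 1 of these, Dazl, passed it only through its 54 h level, so no count of direction is read from this list. Dazl read 147, 175 and 159 units at 54 h and 135, 127 and 124 units at 46 h, where its mean lay under the filter at 46 h, and its other probe set had -0.04 ± 0.23 SE. Ddx4, under the filter, read 7.94 to 25.4 units at 54 h and 14.3 to 28.1 units at 46 h. Proliferation genes, which accompany Dnmt1 and Uhrf1 in dividing cells, had 12 of 14 above the filter, 6 on each side, and a median of -0.03. Birc5, 1 of the 6 lower, read 166, 120 and 106 units at 54 h and 160, 148 and 157 units at 46 h. Its mean log2 level at 54 h lay under the filter, which it passed only through its 46 h level. No direction is therefore read from this count either. In limma, 2 higher and 2 lower genes had an unadjusted p under 0.05. Mcm2 had 0.29 ± 0.10 SE, while Rrm2 had -0.46 ± 0.12 SE and Top2a -0.35 ± 0.15 SE.

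**Figure D4:**
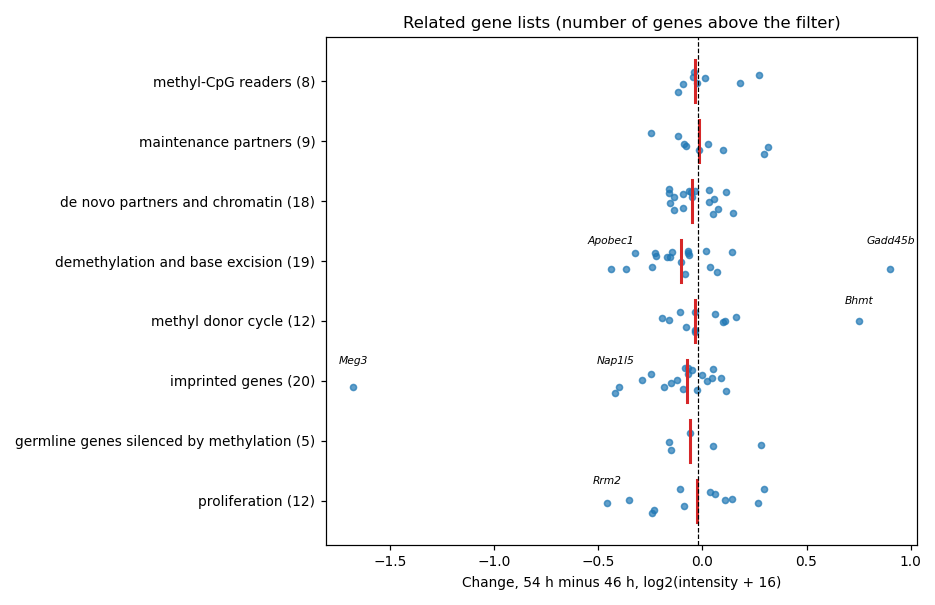
Change of each gene above the filter in the 8 related lists, 54 h minus 46 h on log2(intensity + 16); red bars are list medians, the dashed line is the median of all genes tested (-0.02) and numbers in brackets count genes. Names mark changes beyond 0.41 either way, with Meg3 lowest and Gadd45b highest.

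The samples carried the markers of their tissue: 10 cortical genes summed to 126768 to 139874 units at 54 h and 133523 to 141313 units at 46 h, and 9 medullary genes to 66763 to 72176 units at 54 h and 70369 to 74569 units at 46 h. The 2 X-zone genes summed to 109.6 to 133 units at 54 h and 60.8 to 112 units at 46 h. Immune markers (10 genes, none at 0) summed to 23141 to 23495 units at 54 h, against 25123 to 26128 units at 46 h, the direction of Dnmt3l, with 3 of the 10 lower without overlap (9.05% of all probe sets tested) and 5 of the 10 on each side of 0 by their change. Liver markers, given above, ran opposite to Dnmt3l, with 8 of 10 higher without overlap (6.48% of all probe sets tested). Fgb, 1 of the 8, was under the filter and so lies outside the probe sets of that share. Of the liver markers, Serpina1b and Cyp3a11 passed the adjusted threshold in limma. The part of these and the following lists in the Dnmt3l change was not tested. Adipose genes (6, none at 0) summed to 27543 to 34857 units at 54 h and 26004 to 32257 units at 46 h, which overlap. Of the 6, 3 (Lep, Cidea and Ucp1) were higher without overlap (6.48% of all probe sets tested), and the list's median change was 0.33. The other 3 overlapped: Adipoq had -0.11 ± 0.11 SE, Fabp4 -0.06 ± 0.07 SE and Retn 0.10 ± 0.14 SE. Erythroid genes (3) summed to 1747 to 2199 units at 54 h and 1245 to 1684 units at 46 h, with no overlap. Of the 3, 2 were higher without overlap (6.48% of all probe sets tested), and Hbb-b2 passed the adjusted threshold in limma with a change of 1.04 ± 0.12 SE. The remaining one, the globin gene Hba-a1, had a change of -0.30 ± 0.30 SE with overlap, so the globin probe sets differed in direction. Thymus and lymphoid genes (5) summed to 1616 to 1957 units at 54 h and 1541 to 2082 units at 46 h, and germ cell and gonad genes (8) to 1979.5 to 2101 units at 54 h and 1835 to 2039.6 units at 46 h. The sums of the last 2 lists, like those of the cortex and medulla lists, overlapped between time points. By their change, 10 of 10 cortical and 8 of 9 medullary genes were below 0, where 56.7% of all genes tested were. Their medians were -0.055 and -0.086. No cortical gene was without overlap, and 1 medullary gene, Scg2, was lower without overlap (9.05% of all probe sets tested). The 3′ to 5′ signal ratio of the array's Gapdh controls was 0.915 to 1.0 at 54 h and 0.968 to 1.05 at 46 h, and that of its pyruvate carboxylase controls was 5.89 to 7.69 at 54 h and 7.31 to 8.11 at 46 h. Per2 read 829 to 1550 units at 54 h and 1141 to 1504 units at 46 h, and Cry1 read 58.1 to 99 units at 54 h and 84 to 119 units at 46 h. Where these probe sets lie relative to the mutations is not given in the sources used here, and no genotype was read from them.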

How the data were processed

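The values deposited by the authors are linear intensity readings, 1 for each probe set on each array, from biotin-labelled RNA per the labels. The summarisation, background correction, normalization and genome build are not given in the sources used here. Array medians were 203.9 to 217 units and differed by 0.0728 on the log2 scale after filtering, so no further scaling was applied. From 45001 rows, 64 controls, 1 without values and 1 with a damaged value were left out, which left 44935. Of these, 34848 named 1 gene, 928 several and 9159 none in the platform annotation.

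Values were taken as log2(intensity + 16), so changes of dim probe sets are understated. Probe sets with a mean above the 40th percentile (26961) were fitted in limma 3.58.1 under R 4.3.3 (lmFit, eBayes with an intensity trend), 54 h minus 46 h, with two-sided p-values adjusted by Benjamini-Hochberg over all of them and a threshold of 0.05. Values of probe sets under the filter come from a fit without it. Since the labels do not tie arrays to animals, the p-values reflect variation among these arrays alone, possibly technical, and 6 arrays limit the precision. Genes with several probe sets were read from the one with the highest mean. On simulated data of this comparison with 26961 probe sets, simulated 1.25-fold changes were called in 5.9% of cases, 1.5-fold changes in 34.4% and 2-fold changes in 75.2%, and 4.47% of calls were false, so changes of the size seen in the other members would mostly go uncalled.

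The members, lists and settings were chosen with earlier results of these data known. Genes eligible to be named were all members, the 4 genes of each list with the smallest p and up to 2 well-known ones, the 5 genes most and the 5 least correlated with Dnmt3l, and its 3 protein-coding neighbours on each side. The text gives values for part of these, and lists of cell-type markers as sums. Other probe sets of named genes were looked up after values were seen. The alternatives were normalization, offset, filter, variance model, replicate block, the mean over probe sets and leaving out each array.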

Additional observations from a re-analysis of the deposited data

How the results depend on the processing

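The Dnmt3l change of -0.98 kept its sign in all alternatives that gave a value, from -1.03 with an offset of 1 to -0.83 with an offset of 64, and from -1.07 to -0.90 without single arrays. Under the filter at the 60th percentile it was not tested. The 31 probe sets past the threshold became 47 with quantile normalization, 50 with arrays centred on their medians, 48 with a filter at the 60th percentile, 3 without an intensity trend and 61 with a robust fit. Without single arrays the count ran from 2 to 66: 2 without 46h replicate 1, 2 without 54h replicate C, 18 without 46h replicate B, 61 without 54h replicate B and 66 without 54h replicate 1. The 1 member past the threshold became 0 with the filter at the 60th percentile, where Dnmt3l was left out, and 0 without a trend, and was 0 to 1 without single arrays. With the replicate letter as a replicate block, 45 passed and the Dnmt3l change was -0.98. Correlations of deviations from the time-point means between arrays of the same letter were -0.06, -0.405 and -0.487. The highest across letters were 0.46, for 54h array C with 46h array B, and 0.383, for 54h array B with 46h array C. With 3 arrays per time point, these values cannot decide whether the letters mark samples prepared together. Uhrf1 turned sign in 4 of 13 alternatives and Tet1 in 2 of 13, and the other members kept theirs in all alternatives run. The medians of the reader, maintenance, methyl donor and germline lists turned sign in 3, 3, 3 and 4 of 14, and that of the proliferation list in 1. On their brightest probe sets, Uhrf1 and Tet1 had mean log2 levels of 7.57 and 7.52, close to the filter at 7.28.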
